A study of Mus musculus with 6 samples.

Results

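The genes of the MHC class II antigen presentation pathway and their master regulator Ciita were followed in MLL-AF9 leukemia cells 24 h after treatment with DS-5272, an oral inhibitor of the p53-MDM2 interaction. The 10 genes were chosen by name: Ciita, the peptide-binding chains H2-Aa, H2-Ab1 and H2-Eb1, the invariant chain Cd74, the peptide editor chains H2-DMa, H2-DMb1 and H2-DMb2, and the modulator chains H2-Oa and H2-Ob. They occupied 9 of the 26082 named entries of the expression table. Of the 10 genes, 7 had an entry of their own, Cd74 was joined with the microRNA gene Mir5107, and H2-DMb1 and H2-DMb2 were joined with each other.

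Leukemia was generated in C57BL/6J mice from c-Kit+ bone marrow progenitors that carried a retroviral MLL-AF9 fusion oncogene, in a construct the study describes as coexpressing GFP, and it was propagated by serial transplantation. Both groups carried MLL-AF9, and recipients of the propagated leukemia were not irradiated. The vehicle group consisted of 3 leukemic mice given vehicle by mouth, and the DS-5272 group of 3 leukemic mice given 80 mg/kg body weight of DS-5272 by mouth. Leukemia cells were sorted from bone marrow 24 h later and measured by RNA-Seq. The gate of that sort is not given in the sources used here. A gate on GFP is meant to leave out host cells such as macrophages, and whether such cells remained was not tested. No age and no Trp53 genotype is given in the labels of these samples, nor is it said whether the mice of a group received cells of separate leukemias, so p-values measure the spread between these samples.

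Class II molecules present peptides from endosomes to CD4+ T cells and are made mainly by dendritic cells, B cells, macrophages and thymic epithelium. Newly made alpha and beta chains are held by the invariant chain, a protease cascade trims that chain to a short fragment called CLIP, and the H2-M dimer exchanges CLIP for antigenic peptide while the H2-O dimer restrains H2-M. Transcription of these genes is switched on by Ciita, a coactivator that does not bind DNA itself but docks on the RFX, CREB and NF-Y proteins seated at the X and Y boxes of class II promoters. Interferon gamma induces Ciita, in part through Irf1. C57BL/6 mice make the I-A molecule from H2-Aa and H2-Ab1, whereas the alpha chain gene of I-E is defective in this strain.

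The X and Y boxes are shown because they are the elements that tie the members to Ciita. Promoter windows from RefSeq on GRCm38.p6, from 250 bases before to 50 bases after each start, were found for 7 of the 10 genes, and none was used for Ciita, Cd74 or H2-Ab1. The letters AACNNATG, which cover the end of the X box, and TGATTGG, the Y box, were searched on both strands. Capitals mark these letters. The following 3 stretches hold both, on the coding strand.
H2-DMb2: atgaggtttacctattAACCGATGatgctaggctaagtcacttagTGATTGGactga
H2-Ob: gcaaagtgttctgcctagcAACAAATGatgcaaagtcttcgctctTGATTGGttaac
H2-Eb1: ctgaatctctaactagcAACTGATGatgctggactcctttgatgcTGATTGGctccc
These lie at chr17:34145112-34145168, chr17:34238801-34238857 and chr17:34305761-34305817, all on the plus strand, with 21, 18 and 20 bases between the marked letters. The following 2 stretches hold the Y box letters without AACNNATG, which does not exclude an X box spelled otherwise.
H2-Aa: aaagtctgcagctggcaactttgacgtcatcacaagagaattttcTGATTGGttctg
H2-Oa: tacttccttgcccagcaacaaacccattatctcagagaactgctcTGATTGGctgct
They lie at chr17:34287862-34287918 on the minus strand and chr17:34092289-34092345 on the plus strand. H2-DMb1 also held both sets of letters, 21 bases apart, within an annotated 5′ leader, and the 2 windows of H2-DMa held neither. The H2-DMb2 stretch lies inside its annotated gene, which starts at chr17:34143307. The H2-Oa stretch runs past the annotated start of its gene at chr17:34092340.

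The X box letters were in 8.86% of the 32851 windows and in 4 of the 7 members with a window. The Y box letters were in 7.82% of windows and in 6 of the 7 members. AACNNATG followed by TGATTGG, 5 to 35 bases apart, was found in 16 windows, or 0.0487% of all. Of these 16, 4 belonged to the members H2-DMb1, H2-DMb2, H2-Ob and H2-Eb1. A window without these letters may still hold an X box spelled otherwise, which was not searched for. The letters were settled on after the members' windows had been read, so that these shares describe the windows and test nothing. Of the members with both sets of letters, H2-Ob and the joined H2-DMb entry rose with DS-5272. H2-Eb1 did not pass the test, nor did BC051142, a gene outside the members (log2 fold change 0.02, limma, adjusted p = 0.927). BC051142 was the only gene outside the members with both sets that was tested under its own symbol. Older and joined names of the others were not searched. H2-DMa rose with neither set of letters in its 2 windows, which do not reach its annotated start at chr17:34119541.

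Values are FPKM, fragments normalised for transcript length and library size, so that levels can be set side by side between genes of different length. Differences were tested with limma on log2(FPKM + 1) across 11130 entries with a mean of at least 1 FPKM, and a gene was called at a Benjamini-Hochberg adjusted p under 0.05. A fold change on this scale understates the change of low genes. The ratio of means in FPKM is given beside it for the members that were called. For genes outside the members no such ratio is given. Mice were the replicates, and exact permutation of 3 against 3 labels could give no p under 0.1. Depth was estimated from the size of 1 fragment in low FPKM values as 34800000 to 43100000 fragments per vehicle library and 23200000 to 32100000 fragments per DS-5272 library. DS-5272 replicate 1 stood apart from the other two treated libraries by its macrophage markers, which are given where they touch a member.

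Across all tested entries 2697 rose (24.2%) and 2451 fell (22.0%) with DS-5272, so that a called gene is common in this comparison. Rises made up 52.4% of the calls as deposited and 32.5% after rescaling each library to a common total. Without vehicle replicate 2 the counts were 1654 and 1404, and without vehicle replicate 3 the number that fell was 1489. Of the 9 entries of the members, 7 passed the filter and were tested. Cd74, H2-DMa, H2-DMb1/H2-DMb2 and H2-Ob rose, H2-Ab1 and H2-Oa fell, and H2-Eb1 was not called. These 4 rises and 2 falls stand against the background of 24.2% and 22.0%, and the 6 calls of 7 against 46.3% called in either direction. For the tested members the median fold change on the log2 scale was 0.53, beside 0.04 over all tested entries. Groups did not overlap for 6 of the 7, 4 of them higher and 2 lower with DS-5272, against 61.8% of all tested entries, 32.1% higher and 29.7% lower.

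**Figure D1:**
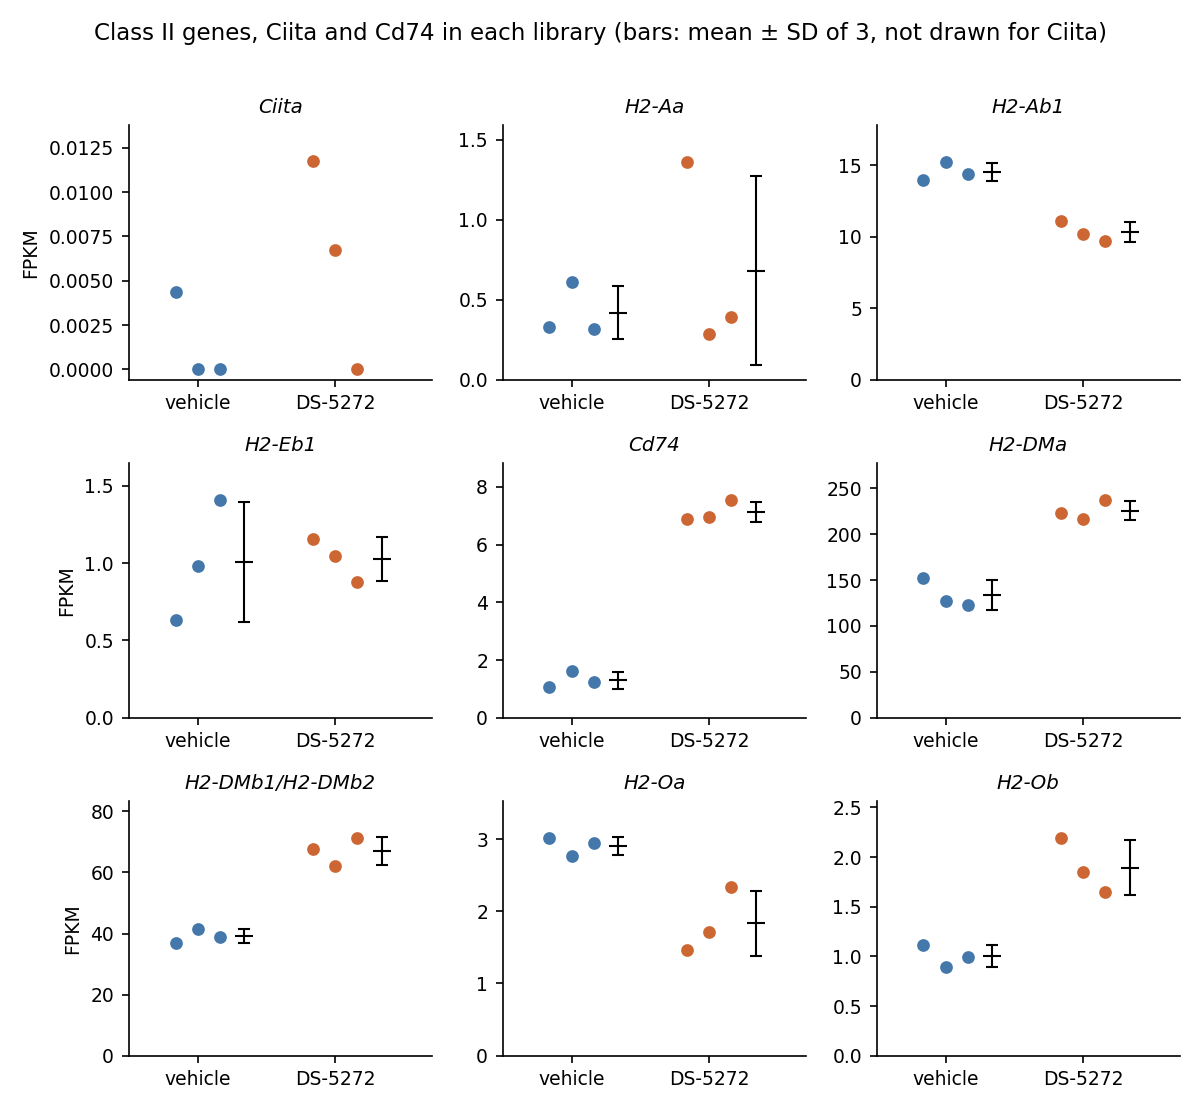
FPKM of each class II entry, Ciita and Cd74 in the 3 vehicle libraries (blue) and the 3 DS-5272 libraries (orange), each panel on its own linear axis, with the mean and SD beside the points except for Ciita. Cd74, H2-DMa, H2-DMb1/H2-DMb2 and H2-Ob lie higher and H2-Ab1 and H2-Oa lower in every DS-5272 library, whereas 1 DS-5272 library carries the high H2-Aa value of 1.36 FPKM.

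Ciita RNA was at the limit of detection in both groups. The table lists 0.00438, 0 and 0 FPKM for vehicle replicates 1 to 3, beside 0.0118, 0.00672 and 0 FPKM for the treated libraries in the same order. With its longest transcript of 6007 nucleotides, these levels amount to an estimated 1.13 fragments in vehicle replicate 1, 2.27 in DS-5272 replicate 1 and 1.13 in DS-5272 replicate 2. The other three libraries held none, where a count of 0 allows up to 3 fragments, or 0.0131 to 0.0215 FPKM. All 6 values lie at or under the level of 3 fragments, which was 0.0116 to 0.0215 FPKM over the libraries, and such limits cover counting error only. Because 5 housekeeping genes were above 0 in every library, the zeros of Ciita are not gaps of whole libraries. Ciita was below the filter and was not tested, and no fold change is given. At this depth no change of Ciita below about these levels could be detected. The Ciita gene lies on GRCm38 at chr16:10480059-10528418 on the plus strand, and 329 of its exonic bases overlap Dexi on the opposite strand.

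Of the peptide-binding chains, H2-Ab1 fell, and H2-Aa and H2-Eb1 were low in both groups. H2-Ab1, the beta chain of I-A, was at 14.0, 15.2 and 14.4 FPKM in the vehicle libraries and at 11.1, 10.2 and 9.71 FPKM in the DS-5272 libraries. Every treated library was lower than every vehicle library. The mean went from 14.5 ± 0.633 to 10.3 ± 0.693 FPKM (SD, n = 3 each), a ratio of 0.712, and the log2 fold change was -0.45 with an SE of 0.10 (limma, adjusted p = 0.0105). Without vehicle replicate 2 the value was -0.42 and the call was lost (adjusted p = 0.0540). This fall is the opposite of the direction of Cd74 and the H2-M chains.

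H2-Aa, the alpha chain that pairs with H2-Ab1, was below the filter. Its levels were 0.330, 0.612 and 0.320 FPKM with vehicle and 1.36, 0.289 and 0.394 FPKM with DS-5272, so the groups overlapped and a single treated library was high. In a fit without the filter the log2 fold change was 0.19 with an SE of 0.24 (limma, adjusted p = 0.599). Without the high library the mean of the treated group was 0.341 FPKM, beside 0.421 FPKM with vehicle. The alpha chain was therefore far below the beta chain per unit length: the ratio of H2-Ab1 to H2-Aa was 42.3, 24.8 and 45.0 in the vehicle libraries and 8.16, 35.3 and 24.7 in the DS-5272 libraries. The lowest of these ratios belonged to DS-5272 replicate 1. H2-Aa and H2-Ab1 are neighbours on chromosome 17, at 34282744 to 34287823 on the minus strand and 34257689 to 34269419 on the plus strand.

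The high H2-Aa value came from the library with the highest macrophage marker levels. In DS-5272 replicate 1 H2-Aa was 3.98 times the mean of the other two treated libraries. The same ratio was above 1 for 13 of 14 bone marrow macrophage markers, with a median of 6.15 and a range from 0.613 to 34.0, and it was 5.67 for C1qa, 3.92 for C1qb and 4.84 for C1qc, which encode the chains of complement C1q. The exception was Adgre1, the F4/80 antigen, at 0.613. For the other 7 detected class II entries the ratio lay between 0.721 for H2-Oa and 1.26 for H2-Ob, with Cd74 at 0.951 and H2-DMa at 0.983. Only H2-Aa among the 8 detected class II entries therefore followed the macrophage markers in this library, and the part of macrophage RNA in its value was not tested. In bulk samples of this kind a change in the number of cells of a type and a change in RNA per cell cannot be told apart.

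**Figure D2:**
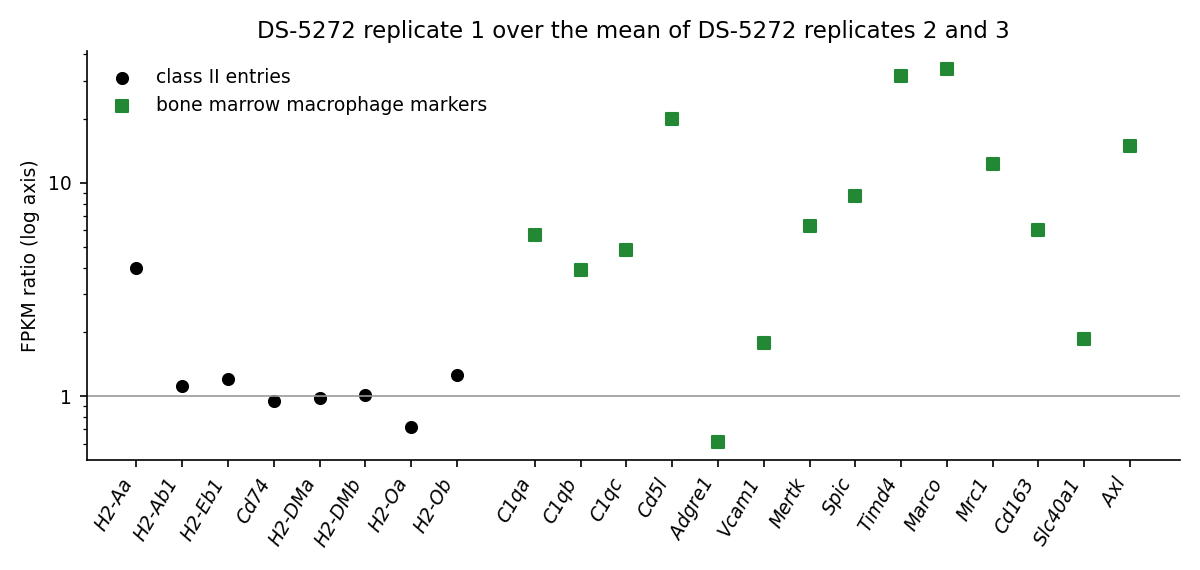
FPKM in DS-5272 replicate 1 divided by the mean of DS-5272 replicates 2 and 3, on a log axis, for 8 class II entries (circles) and 14 bone marrow macrophage markers (squares), with a line at 1. H2-Aa at 3.98 sits among the C1q genes, and the other class II entries lie between 0.721 and 1.26.

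H2-Eb1, the beta chain of I-E, was given on 2 lines of the table that were summed. The sums were 0.634, 0.982 and 1.41 FPKM with vehicle and 1.15, 1.05 and 0.878 FPKM with DS-5272, which overlapped. The means of 1.01 ± 0.387 and 1.03 ± 0.139 FPKM (SD, n = 3 each) differed by a log2 fold change of 0.03 with an SE of 0.18 (limma, adjusted p = 0.904), and the sign of this value turned under 4 of the alternatives. Kept apart, the lines had values of opposite sign, and only the first passed the test. The line listed beside H2-Ab1 and H2-Eb2, where 29 of 32 neighbouring lines with a known strand are on the plus strand as H2-Eb1 is, was at 0.200, 0.247 and 0.306 FPKM with vehicle and 0.574, 0.547 and 0.476 FPKM with DS-5272. The line listed between H2-Aa and H2-Ea-ps, where 32 of 34 neighbours are on the minus strand, was at 0.434, 0.735 and 1.10 FPKM with vehicle and 0.580, 0.50 and 0.401 FPKM with DS-5272. Without the filter the log2 fold change was 0.29 with an SE of 0.05 for the line beside H2-Ab1 (limma, adjusted p = 0.0113) and -0.22 with an SE of 0.14 for the line beside H2-Aa (limma, adjusted p = 0.315). These 2 values were obtained after the values had been seen, and the table does not say what the second line covers. H2-Ea-ps, the defective alpha chain gene of I-E, was listed at 0 in all 6 libraries, and H2-Eb2 stayed between 0.0206 and 0.0671 FPKM.

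Cd74 had the largest fitted rise of the 7 tested members. The invariant chain was at 1.05, 1.60 and 1.23 FPKM in the vehicle libraries and at 6.90, 6.97 and 7.54 FPKM in the DS-5272 libraries. The treated libraries lay close together, far above the highest vehicle library. The mean rose from 1.30 ± 0.282 to 7.14 ± 0.351 FPKM (SD, n = 3 each), a ratio of 5.51, with a log2 fold change of 1.83 and an SE of 0.13 (limma, adjusted p = 0.000687). The entry is shared with Mir5107, which overlaps 12 exonic bases of Cd74 on the same strand at chr18:60803848-60812652, so reads of the pair are reported as 1 value. Without DS-5272 replicate 1, the library rich in macrophage markers, the log2 fold change of Cd74 was 1.85 (limma, adjusted p = 0.00210). C1qa, C1qb, C1qc and Adgre1, the macrophage markers called over all libraries, also rose in that fit. The other macrophage markers were not read in it. In professional antigen-presenting cells Cd74 is among the most abundant transcripts, whereas here it stayed below H2-Ab1 in all 6 libraries.

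The H2-M chains were by far the most abundant members and rose together. H2-DMa was at 152, 127 and 123 FPKM with vehicle and at 223, 217 and 237 FPKM with DS-5272, without overlap. Its mean went from 134 ± 16.0 to 226 ± 10.3 FPKM (SD, n = 3 each), a ratio of 1.69, with a log2 fold change of 0.75 and an SE of 0.12 (limma, adjusted p = 0.00465). Under quantile normalization, which forces the libraries to a common distribution, its log2 fold change was 0.41 and the call was lost (adjusted p = 0.0684). The gene overlaps Brd2 on the opposite strand over 360 exonic bases, and whether counting used strand is not given in the sources used here.

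The beta chains of H2-M, encoded by H2-DMb1 and H2-DMb2, shared 1 entry. It was at 37.0, 41.5 and 38.8 FPKM with vehicle and at 67.8, 62.2 and 71.3 FPKM with DS-5272, and again no treated library reached down to the vehicle range. The mean went from 39.1 ± 2.28 to 67.1 ± 4.58 FPKM (SD, n = 3 each), a ratio of 1.71, with a log2 fold change of 0.76 and an SE of 0.10 (limma, adjusted p = 0.00293). The genes lie side by side, at chr17:34143307-34151555 for H2-DMb2 and chr17:34153072-34160230 for H2-DMb1. Their coding sequences are 786 nucleotides long and identical at 95.9% of aligned bases, and 13.7% of the 100-nucleotide windows of the H2-DMb1 transcript occur unchanged in that of H2-DMb2. The joined value is therefore not divided between them here.

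The alpha and beta chains of H2-M kept their proportion. The ratio of H2-DMa to the H2-DMb entry was 4.11, 3.05 and 3.16 with vehicle and 3.29, 3.49 and 3.33 with DS-5272, which overlapped. Summed over the 9 entries, the members amounted to 194 ± 13.7 FPKM with vehicle and 316 ± 14.8 FPKM with DS-5272 (SD, n = 3 each), and H2-M took 88.4% to 90.4% of that sum with vehicle and 92.3% to 93.2% with DS-5272. The summed level thus describes H2-M almost alone.

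The chains of H2-O, the inhibitor of H2-M, moved in opposite directions. H2-Oa was at 3.01, 2.76 and 2.94 FPKM with vehicle and at 1.46, 1.71 and 2.33 FPKM with DS-5272, all lower than any vehicle library. Its mean went from 2.91 ± 0.129 to 1.83 ± 0.451 FPKM (SD, n = 3 each), a ratio of 0.631, with a log2 fold change of -0.47 and an SE of 0.15 (limma, adjusted p = 0.0380). This call was close to the threshold. Leaving out vehicle replicate 1, 2 or 3 gave adjusted p = 0.102, 0.0971 and 0.116, leaving out DS-5272 replicate 1 or 2 gave 0.0737 and 0.0870, and dropping the filter gave 0.0660, so the call was lost in these 6 fits, with a negative sign each time. H2-Oa overlaps BC051537 on the opposite strand over 321 exonic bases.

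H2-Ob was at 1.12, 0.894 and 0.991 FPKM with vehicle and at 2.19, 1.85 and 1.64 FPKM with DS-5272. Each treated library was above each vehicle library. The mean went from 1.0 ± 0.112 to 1.89 ± 0.277 FPKM (SD, n = 3 each), a ratio of 1.89, with a log2 fold change of 0.53 and an SE of 0.14 (limma, adjusted p = 0.0202). The call was lost without vehicle replicate 2 (0.49, adjusted p = 0.0833), without vehicle replicate 3 (0.53, adjusted p = 0.0761) and with every library brought to one common total (0.38, adjusted p = 0.128). The ratio of H2-Oa to H2-Ob accordingly passed from 2.70, 3.09 and 2.97 with vehicle to 0.666, 0.926 and 1.42 with DS-5272, so that the alpha chain exceeded the beta chain in all 3 vehicle libraries and in 1 of 3 treated libraries.

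**Figure D3:**
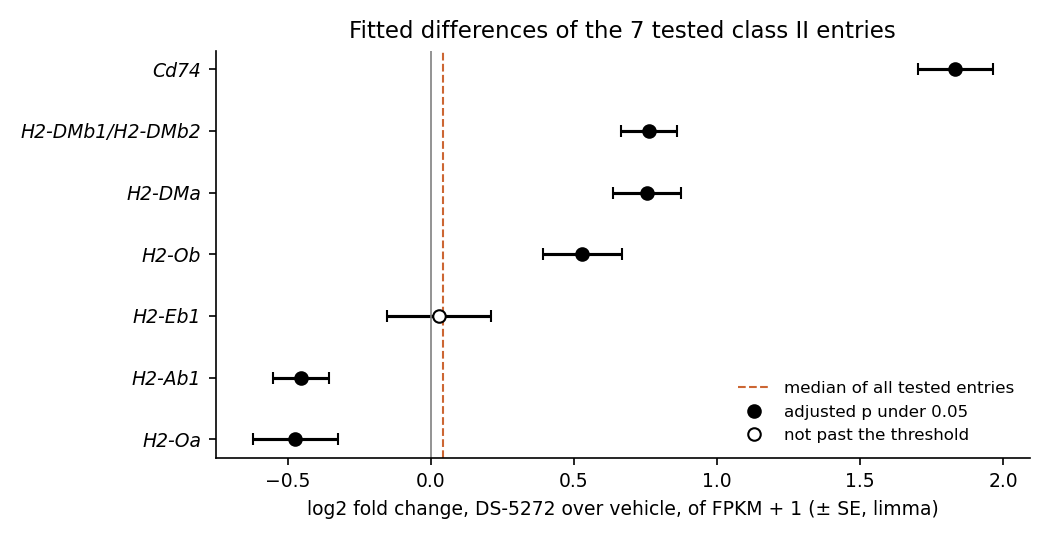
Log2 fold change of FPKM + 1, DS-5272 over vehicle, with its SE from limma, for the 7 tested class II entries. Filled circles passed an adjusted p of 0.05 and the open circle, H2-Eb1, did not. The dashed line is the median of all tested entries, 0.04, and Cd74 at 1.83 lies farthest from it.

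The order of levels was led in both groups by H2-DMa, the H2-DMb entry and H2-Ab1, whose ranges did not overlap. With vehicle, H2-Oa came next, followed by Cd74, H2-Eb1 and H2-Ob, then H2-Aa and Ciita, and the ranges of Cd74 and H2-Eb1 overlapped, as did those of H2-Eb1 and H2-Ob. With DS-5272, Cd74 took the fourth place, followed by H2-Ob and H2-Oa, whose ranges overlapped, then H2-Eb1 and H2-Aa, which overlapped also, and Ciita. Thus Cd74 passed H2-Oa and H2-Ob passed H2-Oa by mean level, while the first 3 places were kept.

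Ratios within a library do not depend on how libraries are scaled, and they showed the same unequal change. H2-DMa was 10.9, 8.34 and 8.52 times H2-Ab1 in the vehicle libraries and 20.1, 21.2 and 24.4 times in the DS-5272 libraries. H2-Ab1 was 13.3, 9.48 and 11.7 times Cd74 with vehicle and 1.61, 1.47 and 1.29 times with DS-5272. H2-DMa was 144, 79.1 and 99.8 times Cd74 with vehicle and 32.3, 31.1 and 31.4 times with DS-5272. None of these 3 ratios overlapped between the groups. Hence relative to H2-Ab1 both Cd74 and H2-DMa were higher in each treated library.

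**Figure D4:**
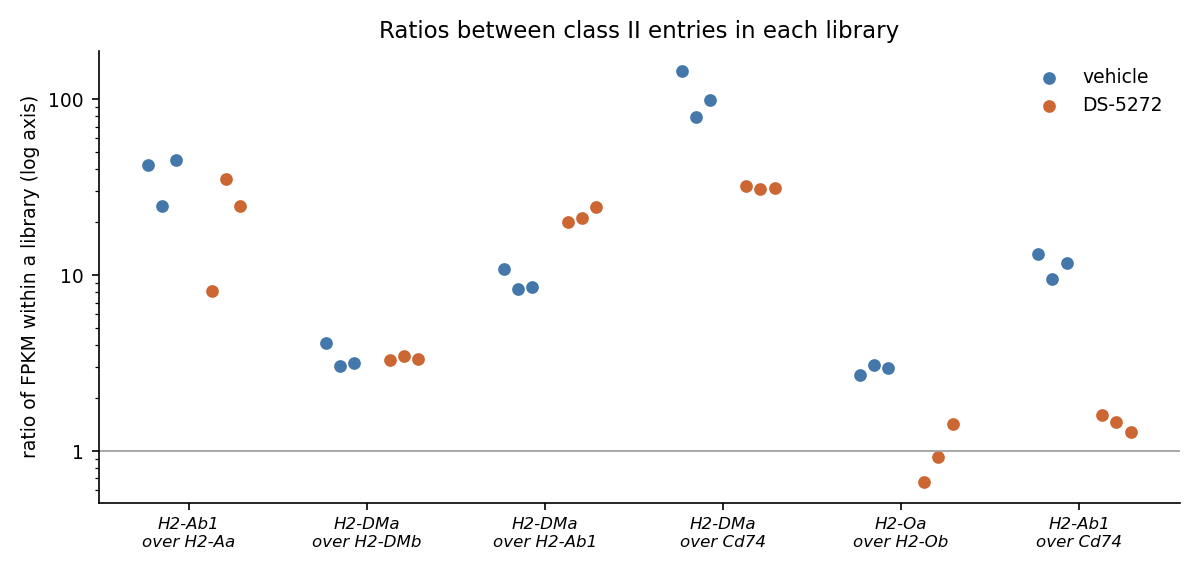
Ratio of the FPKM values of pairs of class II entries within each library, on a log axis, for vehicle (blue) and DS-5272 (orange), with H2-DMb standing for the joined H2-DMb1 and H2-DMb2 entry. The ratios of H2-Ab1 to H2-Aa and of H2-DMa to H2-DMb overlap between the groups, and the other 4 do not.

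Genes of the pathway around the members were read from lists of known function, beside the same backgrounds of 24.2% and 22.0%. Among the proteins that seat Ciita on the X and Y boxes, 3 of 10 rose, 1 fell and 6 were not called. Rfx5, a subunit of RFX, went from 5.31 ± 1.27 to 9.12 ± 2.03 FPKM (log2 fold change 0.68), and Kat2b and Ep300, acetyltransferases that work with Ciita, had log2 fold changes of 0.62 and 0.49. Nfyb, a subunit of NF-Y, fell from 12.2 ± 0.304 to 8.96 ± 0.924 FPKM (log2 fold change -0.41). The remaining subunits Rfxap, Rfxank, Nfya and Nfyc did not pass the test. None of these 4 calls was kept in every fit that left out 1 library: all 3 rises were lost without vehicle replicate 2 and again without vehicle replicate 3, that of Ep300 also without vehicle replicate 1, those of Rfx5 and Kat2b also without DS-5272 replicate 1 or 3, and the fall of Nfyb without any one vehicle replicate. Rescaled to a common total, none of the 10 rose and 3 fell, and with the replicate number as a block Crebbp was called as well (log2 fold change 0.48, adjusted p = 0.0364).

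Of 8 genes of the interferon gamma signal to Ciita, 7 rose and none fell. Among the 7, Socs1 is a feedback inhibitor of that signal, with a log2 fold change of 0.40. Irf1, a transcription factor that acts on the interferon-responsive promoter of Ciita, went from 29.5 ± 4.66 to 76.3 ± 27.4 FPKM (log2 fold change 1.29). Ifngr2, a receptor chain, had a log2 fold change of 1.12. Jak1, Jak2, Usf1 and Socs1 also rose, and Ifngr1 had a log2 fold change of 0.34 and was not called (limma, adjusted p = 0.0878). The calls of Usf1 and Socs1 were lost without vehicle replicate 2 or 3 or without DS-5272 replicate 1 or 3, and that of Socs1 also without each of the other two libraries. Rescaled to a common total, 4 of the 8 rose. With the replicate number as a block Ifngr1 was also called (adjusted p = 0.0423). All 8 genes were detected in every library, while Ciita RNA was at or under 3 fragments in each.

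Transcription factors that act on the promoters of Ciita in myeloid, dendritic and B cells were represented by 7 genes, of which 3 were tested and rose. Spi1, the myeloid factor PU.1, went from 254 ± 23.7 to 431 ± 78.0 FPKM, Irf8 from 94.5 ± 19.8 to 222 ± 13.3 FPKM and Bcl6, a repressor, from 4.58 ± 0.270 to 15.7 ± 4.10 FPKM (SD, n = 3 each). Their log2 fold changes were 0.75, 1.24 and 1.55. Leaving out any single library cost none of these 3 calls. Irf4 and Prdm1, a repressor of Ciita, were below the filter, at 0.243 ± 0.0484 and 0.0615 ± 0.0506 FPKM with vehicle and 0.775 ± 0.168 and 0.772 ± 0.410 FPKM with DS-5272 (SD, n = 3 each). Neither overlapped between the groups, and without the filter both rose, with log2 fold changes of 0.51 and 0.72 (limma, adjusted p = 0.0102 and 0.0266). Pax5, which drives Ciita in B cells, was at 0 to 0.0549 FPKM, and Zbtb46, a dendritic cell factor, at 0 to 0.0322 FPKM.

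The endosomal list held proteases and cofactors that trim the invariant chain and antigens. Of 12 genes, 10 rose, none fell and Ifi30 and Cst3 were not called, although Cst3 was with the replicate number as a block (log2 fold change 0.32, adjusted p = 0.0169). Ctss, the protease that removes the last part of the invariant chain in dendritic and B cells, was at 52.1, 36.2 and 32.4 FPKM with vehicle and at 360, 353 and 460 FPKM with DS-5272, a log2 fold change of 3.27 with an SE of 0.20 (limma, adjusted p = 0.00061). Ctsh, an aminopeptidase, had a log2 fold change of 1.96. Lgmn, the asparaginyl endopeptidase, had a log2 fold change of 2.76, with 49.4 FPKM in DS-5272 replicate 1 against 8.50 and 11.7 FPKM in the other two treated libraries and 1.22 to 2.18 FPKM with vehicle. Without that library the value was 2.03 (limma, adjusted p = 0.00336). The calls of Ctsl, Ctsz and Ap3b1 were lost on leaving out 1 library, namely DS-5272 replicate 2 or 3 for Ctsl, any vehicle replicate for Ctsz and vehicle replicate 1 or 2 for Ap3b1.

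Among 4 genes of class II turnover 3 were tested and 2 rose. Marchf1, the ubiquitin ligase that sends class II molecules of dendritic and B cells to degradation, was at 3.33, 6.16 and 6.14 FPKM with vehicle and at 24.4, 31.2 and 48.0 FPKM with DS-5272 (log2 fold change 2.50, SE 0.29, limma, adjusted p = 0.00230). The related Marchf8 had a log2 fold change of 0.42, and its call was lost without any one vehicle replicate and without DS-5272 replicate 1 or 2. The number that rose was 1 in each of the 4 rescalings, and 3 with the replicate number as a block. Both genes appear in the table under date forms of their older symbols. Of 6 genes in the costimulation list, which also holds inhibitory ligands, 3 were tested and 2 rose. Cd80 was at 1.65 to 2.79 FPKM with vehicle and 5.84, 12.3 and 41.1 FPKM with DS-5272 (log2 fold change 2.32, lost without vehicle replicate 1 or 2). Cd274, which encodes the inhibitory ligand PD-L1, had a log2 fold change of 1.97. The block added Icosl (log2 fold change 0.51, adjusted p = 0.00885). Cd86 was below the filter at 0.123 to 0.209 FPKM with vehicle and 1.20 to 2.23 FPKM with DS-5272, and Cd40 did not exceed 0.171 FPKM.

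Class I presentation, the pathway that serves CD8+ T cells, was set beside class II. Of 12 genes 8 rose, none fell and 4 were not called, with a median log2 fold change of 0.51. Tapbp, the tapasin of the loading complex, and H2-D1, in an entry joined with the class I gene H2-Q7, had log2 fold changes of 1.01 and 0.99. Nlrc5, the class I counterpart of Ciita, was at 3.32, 1.65 and 1.66 FPKM with vehicle and at 7.94, 3.38 and 4.51 FPKM with DS-5272 (log2 fold change 0.94, limma, adjusted p = 0.0454), so it was detected in each library, unlike Ciita. Its call was lost without vehicle replicate 2 or 3 and without DS-5272 replicate 1 or 3. The number of class I genes that rose was 4 without vehicle replicate 2 and 5 without vehicle replicate 3 or DS-5272 replicate 1 or 3. It was 4 after rescaling to a common total and 5 under quantile normalization or without the filter.

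**Figure D5:**
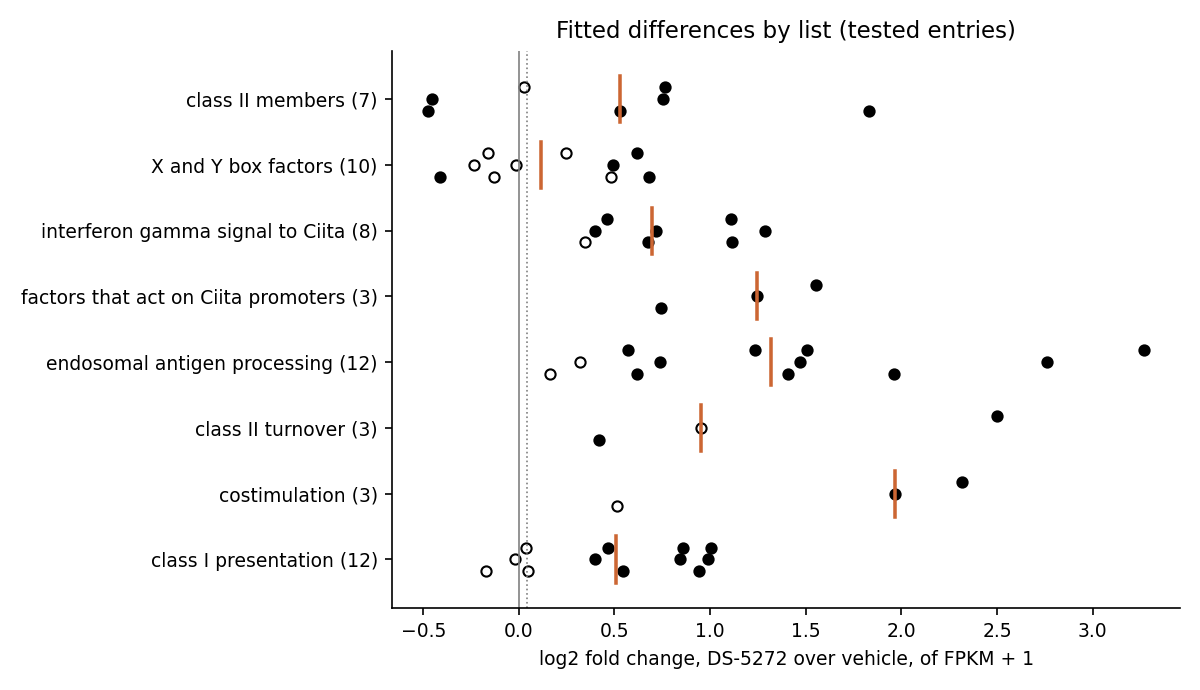
Log2 fold change of FPKM + 1, DS-5272 over vehicle, of each tested gene in the class II entries and in 7 lists of related function, with the number tested in parentheses. Filled circles were called, open circles were not, orange bars are list medians, the solid line is 0 and the dotted line is the median of all tested entries. The class II entries spread from -0.47 to 1.83, and in endosomal antigen processing 10 of 12 genes rose.

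Markers of the cell types that normally carry class II were read in the same libraries, beside the same backgrounds of 24.2% and 22.0%. The leukemia list fitted its label in part: Hoxa9 and Hoxa10, in 1 entry, and Meis1 stayed at 204 to 290 and 66.1 to 110 FPKM and were not called, while Mpo, Elane, Prtn3, Ctsg and Kit fell and Itgam and Ptprc rose, and the summed level of the list was 4794 to 5683 FPKM with vehicle and 3016 to 3064 FPKM with DS-5272. Of 12 B cell markers 10 had an entry, 2 were tested and of these only Cd37, which myeloid cells also express, rose. The summed level of 179 to 200 FPKM with vehicle and 251 to 298 FPKM with DS-5272 was nearly all Cd37, whereas Ms4a1, which encodes CD20, did not exceed 0.0523 FPKM. Cd79a and Cd79b, the chains of the B cell receptor complex, reached 0.367 and 4.79 FPKM, the first below the filter and the second not called. Cd22, below the filter and not tested, was at 0.0737, 0.0562 and 0.0577 FPKM with vehicle. With DS-5272 it was at 1.21, 0.478 and 0.326 FPKM.

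Of 12 dendritic cell markers 4 were tested. Itgax, the CD11c integrin, went from 0.582 ± 0.149 to 6.40 ± 2.99 FPKM, Bst2 rose with a log2 fold change of 1.16, Flt3 fell from 39.1 ± 13.3 to 1.83 ± 0.809 FPKM, and the summed level was 96.3 to 142 FPKM with vehicle and 136 to 225 FPKM with DS-5272. The defining Zbtb46 was near 0, as given above, and Xcr1 and Siglech did not exceed 0.299 and 0.0129 FPKM. Of 14 bone marrow macrophage markers 12 were tested and 4 rose, namely C1qa, C1qb, C1qc and Adgre1, beside 24.2% of all tested entries. The summed level of the list was 77.5 to 136 FPKM with vehicle and 203 to 485 FPKM with DS-5272, highest in DS-5272 replicate 1. With the replicate number as a block Cd5l and Spic were also called (log2 fold changes 2.32 and 1.16, limma, adjusted p = 0.0393 and 0.0421). Of 8 monocyte markers 6 were tested and 5 rose, with log2 fold changes of 3.36 for Fcgr1, 2.03 for Nr4a1 and 1.91 for Csf1r. The summed level was 971 to 991 FPKM with vehicle and 899 to 1294 FPKM with DS-5272. Most of it was the defining marker Ly6c2, which went from 880 ± 33.6 to 693 ± 201 FPKM. Ly6c2 overlapped between the groups and was not called (log2 fold change -0.39, limma, adjusted p = 0.186). Of 8 T cell markers 1 was tested, Lck, which fell, and the summed level did not exceed 4.86 FPKM. Leaving out 1 library ended the calls of Cd37, C1qa and Ctsg (vehicle replicate 1 or 2, for Ctsg also vehicle replicate 3 or DS-5272 replicate 2), Prtn3 (vehicle replicate 2 or 3), Nr4a1 (vehicle replicate 1 or 2, DS-5272 replicate 2 or 3) and Lck (any library but DS-5272 replicate 1). Macrophage and monocyte markers that were called rose in the same direction as Cd74, H2-M and H2-Ob, and their part in those rises was not tested. Without DS-5272 replicate 1 the same members rose and H2-Ab1 fell. C1qa, C1qb, C1qc and Adgre1, the macrophage markers called over all libraries, also rose, with log2 fold changes of 1.74, 2.35, 2.18 and 2.28. The other macrophage markers were not read in that fit. The mean of DS-5272 replicates 2 and 3 was 1.18 FPKM for Cd163 and 15.4 FPKM for Slc40a1, beside 1.63 and 16.2 FPKM with vehicle. For the rest of the list it lay above the vehicle mean, by little for Timd4 (0.0373 and 0.0310 FPKM).

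By correlation of log2(FPKM + 1) over the 6 libraries, the genes most like the mean of the tested members among 8566 with a mean of at least 5 FPKM were Lrp10 and Cyp4f16 with r = 0.999, Serp1 with r = 0.999, Man2b1 and Pvrl2 with r = 0.998. Lrp10, for example, was at 36.1, 39.6 and 38.9 FPKM with vehicle and at 69.7, 67.0 and 74.1 FPKM with DS-5272. With 6 libraries in 2 groups, such values reflect a step between the groups and close replicates, and they are given as a description. No such genes are given for Ciita, since its values rest on at most about 2.27 fragments per library.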

How the data were processed

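MLL-AF9 leukemia cells sorted from bone marrow were measured by RNA-Seq in 3 vehicle-treated and 3 DS-5272-treated mice. The authors prepared strand-specific paired-end libraries and, per the labels, used cutadapt 1.8.1, TopHat2 2.1.1 and Cufflinks 2.2.1 with GRCm38 to derive the deposited FPKM values per gene. The table held 26632 lines with 26082 names, and lines that share a name were summed. FPKM are not counts, so log2(FPKM + 1) was fitted with limma 3.58.1 (R 4.3.3, eBayes with trend) over entries with a mean of at least 1 FPKM, without covariates. Joined entries were kept whole. Depth was estimated from FPKM steps of 343 low genes. The fit was tested on simulated data. Libraries with the same number deviated together (correlations of 0.66, 0.21 and 0.43 over all tested entries, though vehicle 2 with DS-5272 3 gave 0.34 and vehicle 3 with DS-5272 2 gave 0.18). Blocking on that number was therefore run as an alternative. The labels do not say that equal numbers are paired, so this block rests on correlations in these same data. Others were the pseudocount, the filter, 4 rescalings, untrended eBayes, other handling of shared names, a fold change limit and leaving out each library. Named genes were every member, in each list the called genes with the 3 largest changes per direction and defining markers, and the 5 genes most correlated with the members; further list genes were named after their values were seen. The members and lists were chosen with earlier results of these data known. Gene positions are from GENCODE M21 and promoter windows from RefSeq. Ighm, Ighd and Trac were not analysed here. Values of some listed genes are not reported here.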

Additional observations from a re-analysis of the deposited data

How the results depend on the processing

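Cd74, H2-DMb1/H2-DMb2 and, but for quantile normalization, H2-DMa kept their calls at adjusted p under 0.05 in every alternative that tested them. Only Cd74 also reached a log2 fold change of 1. The size of the H2-M rises depended on scaling. Summed FPKM was 445316 to 501241 per vehicle library and 499229 to 661184 per DS-5272 library. At a common total the log2 fold changes of H2-DMa and H2-DMb1/H2-DMb2 were 0.49 and 0.50, beside 0.75 and 0.76 as deposited. Of 111 values of the tested members over alternatives, 96 kept direction and side of the threshold, 11 lost the call and 4 turned sign, all 4 of H2-Eb1: -0.0019 at a common upper quartile, -0.092 at a common total, -0.059 under quantile normalization and -0.11 without vehicle replicate 1. With the replicate number as a block, 3367 entries rose and 2771 fell. This block changed no call of a member and added those of 5 pathway genes and of the macrophage markers Cd5l and Spic. Members that rose numbered 2 at a mean of at least 5 FPKM and 1 at a log2 fold change of at least 1. Members that fell numbered 1 without the filter, 1 at a mean of at least 5 FPKM and 0 at a log2 fold change of at least 1. The median of the members was 0.76 at a pseudocount of 0.1, 0.19 without the filter, 0.75 at a mean of at least 5 FPKM and 0.38 at a common total, which moved the median of all entries from 0.04 to -0.19. At a common total 1713 entries rose, and at a log2 fold change of at least 1 the counts were 978 and 621. Leaving out 1 library gave 1654 (without vehicle replicate 2) to 2920 entries that rose, 1404 to 2446 that fell, 3 to 4 members that rose and 0 to 2 that fell, a median of 0.49 to 0.61 and -0.11 to 0.083 for H2-Eb1. Depth limits Ciita. Both Ciita and H2-Aa were below the filter, and no number of fragments was estimated for H2-Aa.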
